A study of Homo sapiens with 18 samples.

Results

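E1 and F2 are independent clones of G401 in which both copies of RB1 were deleted with CRISPR/Cas9, and here their transcript levels were compared with each other after 11 days in DMSO, the solvent of the EZH2 inhibitor tazemetostat. All genes with a mean normalized count of at least 10 over the 3 E1 and 3 F2 libraries were taken, which gave 15110 of the 55765 genes in the deposited table and 6 of its 18 libraries. G401 is an established malignant rhabdoid tumour cell line, so both clones share the parental genome and its loss of SMARCB1, and they differ from the control line (WT), which was edited at the AAVS1 safe harbour site, in the deletion of RB1. Each clone stands for 1 editing event, and the 3 libraries of a clone are labelled as biological replicates of it. The remaining libraries, used for context, were WT with DMSO and each line with 10 µM tazemetostat for 11 days, again 3 per group. A difference is always given as E1 minus F2 on the log2(normalized count + 1) scale with its standard error (SE), so a positive value is a higher level in E1. A gene was said to differ when its Benjamini-Hochberg adjusted p from limma was under 0.05 and its log2 difference was at least 1 in size.

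RB1 encodes the retinoblastoma protein, which binds E2F transcription factors and holds back genes needed to enter S phase. Its relatives p107 and p130, encoded by RBL1 and RBL2, act on overlapping sets of E2F genes. EZH2 is the catalytic subunit of Polycomb repressive complex 2 (PRC2), which methylates histone H3 at lysine 27 and keeps developmental genes silent. PRC2 is opposed at many genes by the SWI/SNF complex, of which SMARCB1 is a subunit that rhabdoid tumours lack.

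Depth in the 6 libraries ranged from 25709489 to 37481152 reads recovered from the deposited values, and mitochondrial genes took 3.56% to 5.49% of reads. The first principal component of the 6 libraries held 74.8% of the variance and separated the clones. The second held 10.5% and separated E1 replicate 2 from E1 replicate 3, the pair of replicates with the lowest correlation (Pearson's r over genes 0.988, against 0.995 for the highest pair). The median SD of a gene over replicates was 0.176 on the log2 scale in E1 and 0.117 in F2. SMARCB1 had 0 reads in every library, which allows up to 3 reads in each. Of 6 leukocyte markers, PTPRC and CD3E were at 0 reads in all 6 libraries, while ITGAM, an integrin subunit, was higher in E1 (22.0 ± 1.52 against 4.58 ± 2.40, SD, n = 3; log2 difference 2.13, limma adjusted p 6.3e-05), and their summed level was 22.2 to 29.5 in E1 and 4.85 to 12.4 in F2. Of the endothelial markers, CDH5 and KDR were at 0 reads in all 6, TIE1 had 14 reads in E1 and 0 in F2, VWF had 17 and 6, and the sum was 7.72 to 13.4 in E1 and 1.21 to 3.11 in F2. The sum of 7 neural markers was 3848 to 8404 in E1 and 2812 to 3707 in F2, mostly TUBB3, a tubulin gene (0.94, limma adjusted p 0.00053, below the limit on size), with STMN2, SNAP25 and GAP43 at 0 in both. The summed level of 9 mesenchymal markers was 81259 to 92827 in E1 and 58568 to 64238 in F2, with FAP and LUM at 0 in both. This sum was mostly VIM (0.69) and COL3A1 (0.24), both below the limit on size. Of the 6 tested, only COL1A2 differed, while PDGFRB (0.50), THY1 (0.008) and COL1A1 (-0.45) were below the limit. The sum of 7 epithelial markers was 56795 to 85212 in E1 and 22216 to 24465 in F2. The epithelial sum was made up mostly of the keratin genes KRT8 and KRT18, which were higher in E1 by 1.51 and 1.74, whereas CDH1, the epithelial cadherin, had a log2 difference of -3.26. The part of these markers in the differences below was not tested. In bulk RNA, fewer cells with a transcript and less of it per cell cannot be told apart.

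RB1 transcript was reduced but present in both clones. E1 had 658, 505 and 780 normalized counts and F2 had 861, 804 and 852, against 2828, 2687 and 2565 in WT. Every clone library lay below every WT library, and every E1 library lay below every F2 library. The difference between the clones, -0.39 ± 0.11 (SE), had a limma adjusted p of 0.0061 and was below the limit on size. These counts cover the whole gene and do not show which exons the remaining transcript holds.

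The clones differed in 1042 of 15110 genes (6.9%), of which 556 were higher in E1 (3.68%) and 486 lower (3.22%). The libraries of the clones did not overlap in 1026 of the 1042, and in 6090 (40.3%) of all genes tested. The median difference over all tested genes was near 0 (log2 of -0.0043). Most differences were moderate: 193 genes were higher and 105 lower by a log2 of at least 2, and 34 and 18 by at least 5. At the far end were genes that 1 clone transcribed and the other did not at this depth. Of the 556 genes, 34 had at most 3 reads in each F2 library and 10 of them had 0 reads in all 3. Of the 486 genes, 29 had at most 3 reads in each E1 library and 9 had 0 reads in all 3. A threshold of 10 on the mean decided which genes were tested: LHX3 was the gene just inside it (mean 10.0003) and RP11-421N8.1 the gene just outside (9.995), and 13039 genes with reads in these libraries lay below it.

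**Figure D1:**
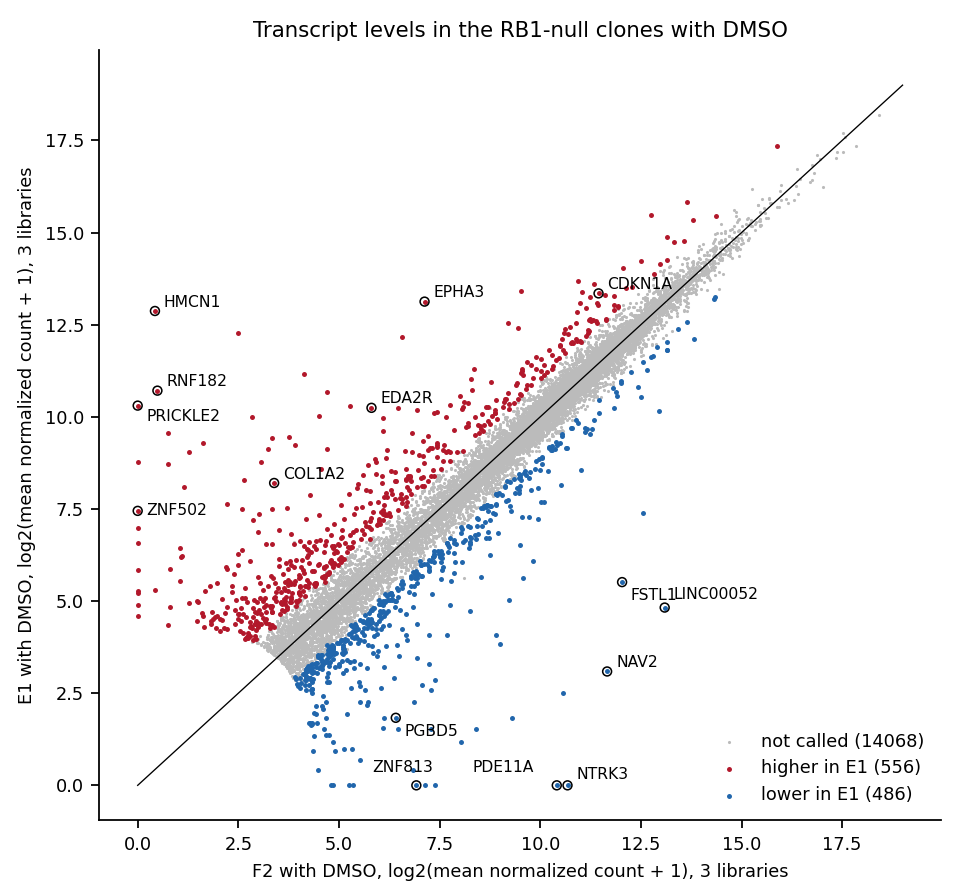
Mean levels of 15110 genes in F2 (x axis) and E1 (y axis) with DMSO, as log2(mean normalized count + 1) over 3 libraries each, where each point is a gene and the line marks equal levels. Most genes lie along the line, 556 lie above it in red and 486 below it in blue, and points on the axes, such as ZNF502 for F2 and NTRK3 for E1, had 0 reads in the clone where they are low.

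The promoters of a few of these genes are shown first, because these genes had 0 or few reads in 1 clone with DMSO and took different courses with tazemetostat. PRICKLE2 (0 reads in F2) and NAV2 (near 0 in E1) reached similar levels in both clones under the inhibitor, while ZNF502 (0 reads in F2) and ZNF813 (0 reads in E1) stayed apart. Each sequence gives the 250 bases before the RefSeq transcription start in GRCh38.p14, 5′ to 3′ on the strand of the gene, with every CG dinucleotide in capitals.
PRICKLE2, chr3:64268174-64268423, minus strand: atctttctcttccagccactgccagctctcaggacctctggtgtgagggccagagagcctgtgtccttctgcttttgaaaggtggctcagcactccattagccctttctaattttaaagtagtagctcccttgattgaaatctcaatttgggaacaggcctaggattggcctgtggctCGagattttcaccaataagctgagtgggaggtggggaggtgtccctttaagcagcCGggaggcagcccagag
NAV2, chr11:19344986-19345235, plus strand: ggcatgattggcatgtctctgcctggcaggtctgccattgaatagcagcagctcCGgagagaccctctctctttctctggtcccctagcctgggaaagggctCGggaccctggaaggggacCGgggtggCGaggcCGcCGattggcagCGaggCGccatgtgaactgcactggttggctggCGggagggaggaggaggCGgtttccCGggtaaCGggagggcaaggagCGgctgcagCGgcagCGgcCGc
ZNF502, chr3:44712410-44712659, plus strand: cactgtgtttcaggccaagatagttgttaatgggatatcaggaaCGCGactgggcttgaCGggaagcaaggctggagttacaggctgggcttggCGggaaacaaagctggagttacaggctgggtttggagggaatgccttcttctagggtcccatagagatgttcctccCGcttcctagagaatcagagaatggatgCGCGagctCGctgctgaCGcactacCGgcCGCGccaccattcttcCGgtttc
ZNF813, chr19:53467483-53467732, plus strand: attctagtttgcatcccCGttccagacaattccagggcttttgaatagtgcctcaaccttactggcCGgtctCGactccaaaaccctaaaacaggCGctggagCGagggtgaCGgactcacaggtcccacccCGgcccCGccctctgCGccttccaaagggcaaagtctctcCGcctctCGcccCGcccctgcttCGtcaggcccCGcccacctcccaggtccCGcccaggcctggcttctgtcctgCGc
PRICKLE2 has 2 CG dinucleotides in this window, NAV2 has 16, ZNF502 has 13 and ZNF813 has 16, so PRICKLE2 is the only one of these 4 with few. CG reads the same on both strands. The median over 10223 tested genes with such a promoter in the table was 21 CG. It was 15 over 299 promoters of genes higher in E1 and 16 over 288 of genes lower in E1. At least 15 CG were found in 73.9% of all these promoters, in 54.5% of those of higher genes and in 51.4% of those of lower genes. Among higher genes the median was 14 over 151 promoters whose difference narrowed with tazemetostat and 15 over 81 also called higher with it. Among lower genes it was 20 over 85 that narrowed and 13.5 over 120 also called lower. A link between CG count and course was not tested. This is a description of the sequence, and no methylation was measured here.

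The genes with the largest differences in favour of E1 include matrix, secreted and receptor genes. HMCN1, which encodes hemicentin-1, a very large extracellular matrix protein, had 8588, 5273 and 8619 normalized counts in E1 and 0, 1.04 and 0 in F2. All 3 E1 libraries were high and F2 held 1 read in all, a ratio of 21671 with a counting interval of 3889 to 855943, and the log2 difference was 12.49 ± 0.25 (SE). WT lay in between with 114, 137 and 201. CHI3L1, a secreted chitinase-like glycoprotein, had 638, 704 and 520 in E1 and 3.07, 3.11 and 0 in F2, a ratio of 301. CCRL2, an atypical chemokine receptor that binds chemerin, had 384, 466 and 411 in E1 and 2.05, 0 and 0 in F2, a ratio of 616 (counting interval 170 to 5083). OLR1 encodes a scavenger receptor for oxidised low-density lipoprotein and had 465, 490 and 636 in E1 and 2.05, 1.04 and 1.21 in F2. In each of these 4 genes no library of 1 clone reached the range of the other, as the rule that chose them asked. Each limma adjusted p was at most 3.4e-13, in genes chosen by that test and by their large difference.

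Genes of guidance and polarity were among the highest in E1 too. PLXNA2, a plexin that receives semaphorin signals, had 314, 243 and 258 in E1 and 0, 0 and 3.64 in F2, a ratio of 224 (76.7 to 1087). PRICKLE2, a component of the planar cell polarity pathway, had 1423, 1034 and 1333 in E1 and 0 reads in each F2 library, so that it was at least 386-fold higher in E1 when each F2 library is set at the 3-read floor. Its paralog PRICKLE1 did not share this difference: E1 had 3918, 3278 and 4200, F2 had 3681, 3374 and 3484, and WT had 34.1, 29.2 and 39.7. The clones overlapped for PRICKLE1 and their difference of 0.11 ± 0.10 (SE) did not pass (limma adjusted p = 0.45). EPHA3, a receptor for membrane-bound ephrins, had 8660, 7785 and 10373 in E1 against 153, 99.6 and 164 in F2 and 67.3, 47.1 and 70.0 in WT. Here F2 was nearer to WT, which lay below both clones, and the log2 difference between the clones was 6.02 ± 0.17 (SE; limma adjusted p 3.3e-16).

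Inside the cell, RNF182, a RING-type E3 ubiquitin ligase, had 1626, 1505 and 1892 in E1 and 0, 0 and 1.21 in F2, a single read (ratio 4139, counting interval 743 to 163495). ARHGAP29, a GTPase-activating protein, had 987, 960 and 1089 in E1 and 7.17, 5.19 and 6.07 in F2, a log2 difference of 7.16 ± 0.09 (SE; limma adjusted p 3.2e-21). ZNF502, one of the many C2H2 zinc finger genes, had 161, 148 and 212 in E1, 0 reads in all F2 libraries, and 165, 146 and 149 in WT. ZNF502 was therefore at the WT level in E1 and at least 53-fold lower in F2. In the other 8 described genes of the 10 highest, HMCN1 to ARHGAP29, WT lay between the clones. A pseudogene of a multicopy family was also among the 10 highest genes and is not described, since reads of near-identical copies cannot be assigned.

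**Figure D2:**
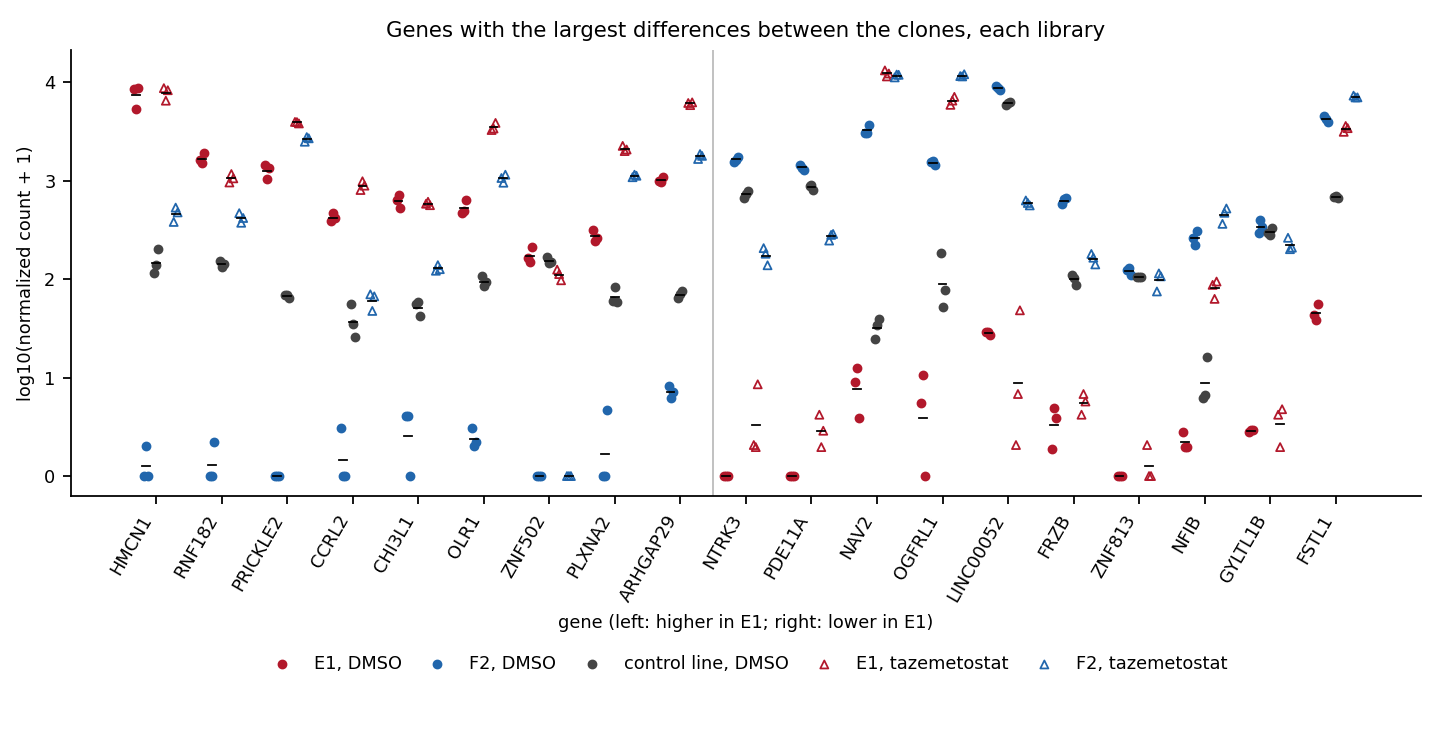
Normalized counts on a log10(value + 1) axis for the 9 described genes highest in E1 (left) and the 10 lowest in E1 (right). Each point is a library, short lines are means of the plotted values over 3 libraries, circles are DMSO and triangles tazemetostat. With DMSO the 2 clones do not overlap in these genes, as the rule that chose them asked. With tazemetostat the triangles of PRICKLE2, PLXNA2, NAV2 and OGFRL1 come close together, while those of ZNF502, ZNF813, GYLTL1B and LINC00052 stay apart.

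In the other direction, the largest difference was that of a neurotrophin receptor. NTRK3, a receptor tyrosine kinase that binds neurotrophin-3, had 0 reads in each E1 library, 1541, 1628 and 1740 normalized counts in F2, against 658, 724 and 788 in WT. It was at least 578-fold lower in E1 than in F2. PDE11A, a phosphodiesterase that breaks down cAMP and cGMP, also had 0 reads in E1, against 1448, 1353 and 1279 in F2 and 879, 909 and 802 in WT, and was at least 480-fold lower. In both genes WT was on the side of F2. LINC00052, a long noncoding RNA, had 27.7, 28.0 and 26.3 in E1, 9054, 8779 and 8341 in F2, against 5867, 6127 and 6264 in WT, a ratio of 319. GYLTL1B, a glycosyltransferase that extends sugars on dystroglycan, had 1.79, 1.93 and 1.95 in E1, 292, 392 and 335 in F2, against 293, 281 and 329 in WT. ZNF813 had 0 reads in E1, 122, 130 and 109 in F2, against 104, 104 and 105 in WT, so that it mirrored ZNF502, with F2 at the WT level and E1 at least 42.5-fold lower.

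A further 5 of the 10 genes lowest in E1 were low or intermediate in WT and high in F2. NAV2, a neuron navigator protein that acts on the cytoskeleton, had 8.04, 11.6 and 2.92 in E1, 3031, 3041 and 3639 in F2, against 23.6, 33.0 and 37.9 in WT. Its log2 difference was -8.72 ± 0.26 (SE; limma adjusted p 8.7e-16), a ratio of 431. OGFRL1 had 4.46, 9.65 and 0 in E1, 1552, 1572 and 1422 in F2, against 183, 50.9 and 75.7 in WT. NFIB, a transcription factor of the nuclear factor I family, had 1.79, 0.965 and 0.974 in E1, 259, 221 and 307 in F2, against 5.24, 5.65 and 15.1 in WT. Secreted proteins were among them as well: FRZB, an antagonist of WNT ligands, had 0.893, 3.86 and 2.92 in E1 against 578, 644 and 656 in F2, and the glycoprotein gene FSTL1 had 42.0, 37.6 and 54.6 in E1 against 4468, 4166 and 3935 in F2. PGBD5, a domesticated transposase gene, had 0.893, 2.90 and 3.90 in E1, 68.6, 97.5 and 86.2 in F2, against 128, 133 and 129 in WT. PGBD5 thus had its highest level in WT, and the clones differed by -4.67 ± 0.22 (SE; limma adjusted p 1.4e-12).

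The genes were next read by lists of known roles, and each list is described by its counts, its median and the same over all tested genes. Only members past the mean of 10 were tested. A gene that is near 0 in 1 clone passes through its level in the other, so the share of a list that differed describes the tested members, not the whole list.

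The regulators of the cell cycle around RB1 and E2F came first. Of 21 tested among 22 RB and E2F regulators, 2 were higher in E1 and 1 lower (14.3%, beside 6.9% of all tested genes), with a median log2 of 0.03. E2F7, an atypical E2F that represses E2F targets, had 1197, 971 and 1307 in E1 and 469, 457 and 479 in F2 (1.29 ± 0.09, SE). CCNE2, a cyclin of the G1/S transition, had 1269, 1288 and 1504 in E1 and 567, 568 and 522 in F2 (1.29 ± 0.09). In both genes F2 was near WT, which had 503, 474 and 508 for E2F7 and 593, 527 and 556 for CCNE2. The lower member, CCND2, a D-type cyclin, was below the mean level of 50 that naming asked for and is named for completeness (-1.83 ± 0.23). E2F1 was not past the test (-0.16 ± 0.07, limma adjusted p = 0.082), and neither was EZH2, with 2944, 3011 and 3579 in E1 and 3373, 3161 and 3088 in F2 (-0.02 ± 0.07, adjusted p = 0.87). RBL1 (-0.52 ± 0.10) and RBL2 (-0.26 ± 0.09) had adjusted p of 0.00023 and 0.023 and were below the limit on size.

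No gene of 32 G1/S targets differed, beside 6.9% of all tested genes, and their median log2 was -0.10. Of 37 G2/M genes, which act in mitosis, only CDC25B differed (2.70%, beside the same 6.9%). CDC25B, a phosphatase that activates CDK1, had 789, 785 and 580 in E1 and 1467, 1538 and 1422 in F2 (-1.05 ± 0.10, SE). Without E1 replicate 3 its difference was -0.91 and the call was lost. With no limit on size, 30 of the 37 G2/M genes were lower in E1 and 0 higher, compared with 18.3% lower and 20% higher of all tested genes. The median of the list was -0.36, and -0.41 with every library scaled to the same total. Relative to the F2 mean, the mean log2 level of the list was -0.38, -0.37 and -0.36 in the E1 libraries, 0.05, 0.01 and -0.07 in the F2 libraries, and -0.27, -0.27 and -0.37 in the WT libraries. F2 was thus the higher line for these genes, and E1 was near WT.

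Among targets of p53, the stress-activated tumour suppressor, more were higher than lower in E1. Of 41 tested members among 45, 9 were higher and 1 lower (24.4%, beside 3.68% higher and 3.22% lower of all tested genes), and with no limit on size 30 were higher and 2 lower (beside 20% and 18.3%). The median log2 was 0.56, against near 0 for all tested genes. Relative to the F2 mean, the mean log2 level of the list was 0.79, 0.85 and 0.75 in the E1 libraries and at most 0.04 in F2 and WT libraries, so E1 stood apart from both other lines. CDKN1A, which encodes the CDK inhibitor p21, had 10527, 11784 and 8991 in E1, 2786, 2928 and 2662 in F2, against 2495, 2461 and 2331 in WT (1.89 ± 0.07, SE; limma adjusted p 9.7e-14). EDA2R, a receptor of the TNF receptor superfamily, had 1186, 1171 and 1278 in E1 against 57.4, 51.9 and 55.8 in F2 (4.44 ± 0.11), and TRIM22, a tripartite motif protein, had 89.3, 89.8 and 115 against 19.5, 7.26 and 19.4 (2.70 ± 0.28). The lower member was TNFRSF10C, a decoy receptor for the ligand TRAIL (-1.07 ± 0.20). RPS27L was at the limit (1.00 ± 0.09), so that 8 members were higher under 2 other scalings. MDM2, a ubiquitin ligase, had a difference of 0.39 ± 0.07 with a limma adjusted p of 9.7e-05 and was below the limit on size. That p53 targets are high in E1 was known from earlier work on these data and is not an independent result.

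The CDK inhibitors did not move together. Of 8 tested, CDKN1A was higher and 2 were lower in E1 (37.5%, beside 6.9% of all tested genes), with a median of -0.21. CDKN2B, which encodes p15, had 245, 202 and 259 in E1, 486, 575 and 519 in F2, against 870, 753 and 770 in WT (-1.16 ± 0.09, SE; limma adjusted p 5.6e-09), an order in which no library of the 3 lines overlapped. CDKN1C, which encodes p57, had 29.5, 32.8 and 18.5 in E1 and 44.1, 63.3 and 65.5 in F2 (-1.09 ± 0.26, adjusted p 0.0025). Its call was lost without E1 replicate 3 (-0.85) or F2 replicate 3 (-0.98), and with a pseudocount of 5 (-0.98). CDKN1B (0.19 ± 0.07, adjusted p 0.038) was below the limit on size and CDKN2A (-0.18 ± 0.09, adjusted p = 0.11) did not pass. CDKN2A and CDKN2B lie close together with an antisense gene, and the strand setting of the counting is not given in the sources used here, so their values are uncertain to that extent.

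Polycomb genes differed in 1 of 33 tested members among 34 (3.03%, beside 6.9% of all tested genes). JARID2, a PRC2 accessory subunit that helps bring the complex to its targets, had 56.3, 37.6 and 41.9 in E1, 217, 238 and 199 in F2, against 94.3, 101 and 112 in WT. The lines were ordered E1, WT and F2 with no overlap, and the difference between the clones was -2.26 ± 0.11 (SE; limma adjusted p 4.1e-12). The median of the list was -0.04.

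**Figure D3:**
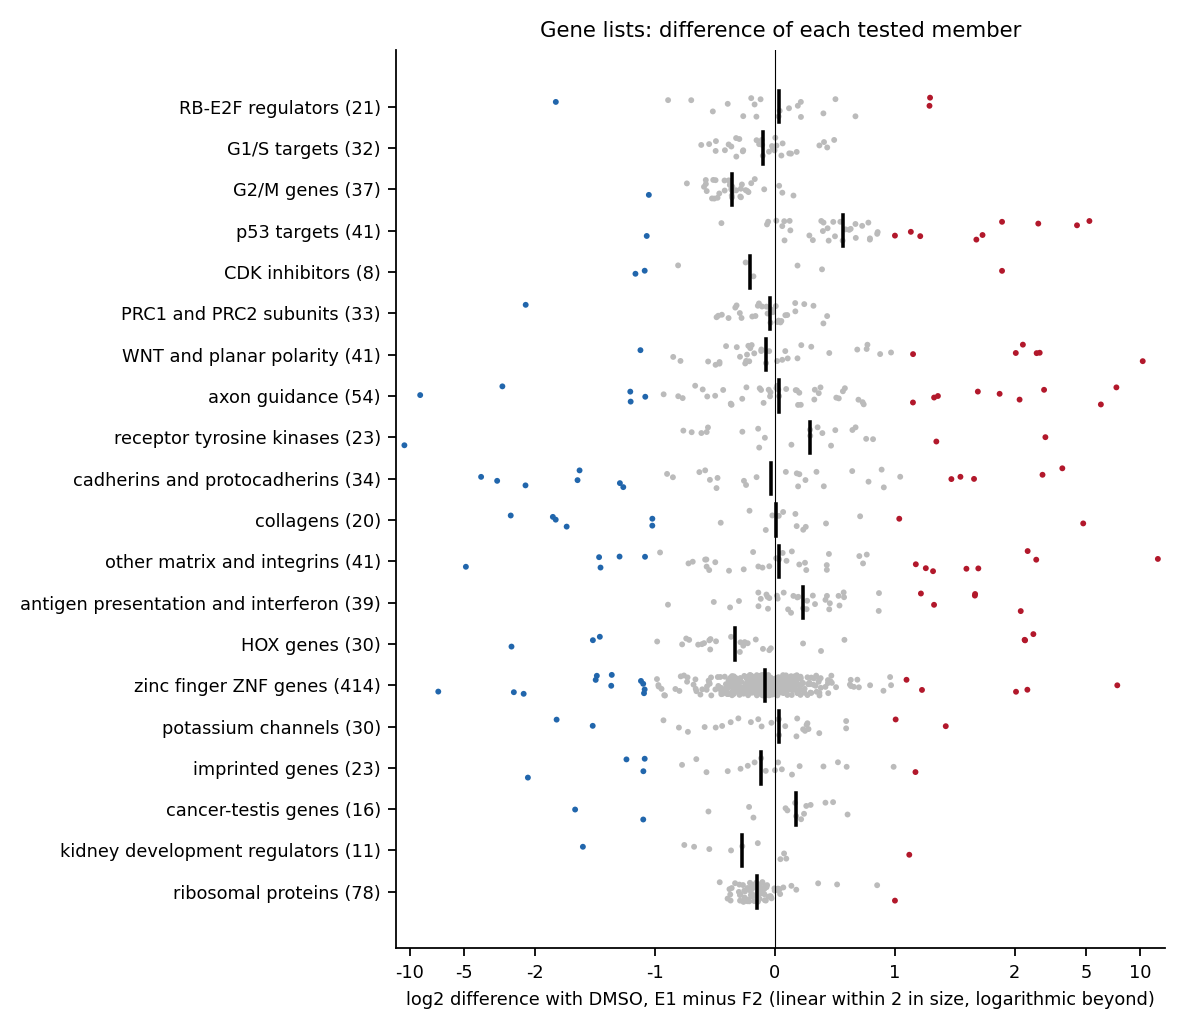
Log2 differences with DMSO, E1 minus F2, of the tested members of 20 gene lists (number tested in brackets). Each point is a gene, red where it was higher and blue where it was lower past the test, and vertical bars are medians of each list. The axis is linear up to 2 in size and logarithmic beyond. The medians of the p53 targets (0.56) and of the G2/M genes (-0.36) lie on opposite sides of 0, while the lists of adhesion, matrix and guidance genes have medians near 0 and long tails in both directions.

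Signalling and guidance genes differed one by one and in both directions. Of 41 tested among 70 WNT and planar polarity genes, 6 were higher in E1 and 1 lower (17.1%, beside 6.9% of all tested genes), with a median of -0.07. WNT11, a ligand of the non-canonical branch, had 1122, 1210 and 973 in E1, 165, 180 and 143 in F2, against 409, 378 and 420 in WT (2.75 ± 0.10, SE). The ligand genes WNT7B, WNT6, WNT2B and WNT5A, named after their values were seen, were the other higher members besides PRICKLE2. The lower member was FZD7, a WNT receptor, with 339, 306 and 349 in E1 against 766, 726 and 675 in F2 (-1.12 ± 0.09). Of 54 tested among 77 axon guidance genes, 9 were higher and 5 lower (25.9%, beside the same 6.9%; median 0.03, and -0.01 with every library scaled to the same total). Besides PLXNA2, EPHA3 and NAV2, the rule took RGMA, a repulsive guidance molecule, with 136, 125 and 81.8 in E1 and 222, 307 and 254 in F2 (-1.20 ± 0.19), whose call was lost without E1 replicate 3 (-0.98). Of 23 tested among 38 receptor tyrosine kinases, 2 were higher and NTRK3 was lower (13.04%, beside the same 6.9%), with a median of 0.29. DDR1, a receptor for collagen, had 12277, 12234 and 9982 in E1 and 4274, 4786 and 4462 in F2 (1.35 ± 0.08). RET, the receptor for GDNF family ligands, was the other higher member and lay below the mean of 50 (2.96 ± 0.26).

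Adhesion and matrix genes differed in both directions. Of 34 tested among 111 cadherins and protocadherins, 5 were higher and 7 lower (35.3%, beside 6.9% of all tested genes). FAT4, a giant cadherin of the planar polarity pathway, had 159, 147 and 173 in E1 and 25.6, 14.5 and 25.5 in F2 (2.85 ± 0.20, SE). CDH4, a classical cadherin, had 5939, 4788 and 3962 in E1, 1582, 1706 and 1672 in F2, against 5636, 5400 and 5515 in WT, so it was F2 that departed from WT. PCDH9, a protocadherin, had 11.6, 7.72 and 6.82 in E1 against 144, 161 and 148 in F2 and a mean of 113 ± 12.2 (SD, n = 3) in WT. CDH1 had 8.04, 14.5 and 25.3 in E1 against 167, 165 and 114 in F2 and 256, 283 and 230 in WT. For PCDH9 and CDH1, E1 was the line apart. Clustered protocadherins share exons and sequence, so reads may be split between them.

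Of 20 tested among 44 collagen genes, 2 were higher and 6 lower (40.0%, beside 6.9% of all tested genes). Their median was near 0 (0.0047 log2, and -0.04 with every library scaled to the same total). COL1A2, a chain of fibrillar type I collagen, had 230, 340 and 312 in E1, 9.22, 8.30 and 10.9 in F2, against 115, 110 and 84.2 in WT (4.80 ± 0.22, SE; limma adjusted p 7.6e-13). COL1A1, the other chain of type I collagen, went the other way, with 539 ± 134 in E1 against 727 ± 98.2 in F2 (SD, n = 3). Its difference of -0.45 ± 0.14 (SE, limma adjusted p 0.014) was below the limit on size, and the libraries of the clones overlapped. COL9A1, a chain of cartilage collagen IX, had 146, 140 and 158 in E1, 984, 959 and 1031 in F2, against 753, 689 and 792 in WT (-2.74 ± 0.13). COL28A1, also lower, had 25.8 ± 9.84 in E1 against 91.3 ± 19.8 in F2 (SD, n = 3) (-1.83 ± 0.26). Of 41 tested among 71 other matrix and integrin genes, 8 were higher and 5 lower (31.7%, beside the same 6.9%, median 0.03). Besides HMCN1, FBLN5, an elastic fibre protein, had 250, 190 and 270 in E1, 41.0, 40.5 and 30.3 in F2, against 516, 636 and 584 in WT. ITGA4, an integrin subunit that binds fibronectin and VCAM1, had 11.6, 16.4 and 19.5 in E1, 539, 419 and 483 in F2, against 148, 193 and 135 in WT (-4.86 ± 0.25). THBS4, a thrombospondin, was lower by a smaller amount (-1.47 ± 0.20).

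Genes of antigen presentation and interferon signalling were higher in E1 in 5 of 39 tested members among 58 and lower in 0, beside 3.68% and 3.22% of all tested genes, with a median log2 of 0.23. PSMB9, an immunoproteasome subunit, had 1780, 2493 and 1659 in E1, 449, 461 and 398 in F2, against 519, 561 and 521 in WT (2.16 ± 0.11, SE). TAP1, which pumps peptides into the endoplasmic reticulum, had 4775, 5545 and 4505 in E1, 1612, 1619 and 1425 in F2, against 2308, 2396 and 2126 in WT (1.67 ± 0.07). The remaining members, TAPBPL, HLA-B and HLA-DPA1, were named after their values were seen, and HLA genes share sequence. With tazemetostat 0 of the 39 were higher and 5 lower in E1, with a median of -0.15, beside 1.62% higher and 2.96% lower of all tested genes. The list's change between treatments was not tested.

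HOX genes, which specify position along the body axis, had a median log2 of -0.33. Of 30 tested among 39, 3 were higher and 3 lower in E1 (20%, beside 6.9% of all tested genes), and all 3 higher genes were in the HOXB cluster and all 3 lower genes in the HOXD cluster. HOXB8 had 347, 377 and 320 in E1, 53.3, 66.4 and 58.2 in F2, against 118, 124 and 112 in WT (2.54 ± 0.10, SE), and HOXB9 had 1448, 1212 and 1381 against 259, 298 and 271 in F2 (2.28 ± 0.08). HOXD3 had 20.5, 40.5 and 31.2 in E1 and 83.0, 78.8 and 88.6 in F2 (-1.46 ± 0.22). HOXD3, HOXD8 and HOXD9 were the only HOXD genes tested, and HOXB6 was the third higher HOXB gene of 9 tested. None of 11 HOXA genes differed by a log2 of 1, yet 9 of them were lower in E1 with no limit on size, with a median of -0.54. Of 7 HOXC genes none differed, and 4 were lower and 1 higher with no limit on size. Of the 9 HOXB genes, 4 were higher and 2 lower with no limit on size, beside 20% and 18.3% of all tested genes.

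Of 414 tested among 554 zinc finger genes with ZNF symbols, 5 were higher and 11 lower (3.86% in either direction, below the 6.9% of all tested genes), with a median of -0.09. ZNF28 had 264, 252 and 259 in E1 against 51.2, 57.1 and 42.5 in F2 and 46.3, 38.6 and 45.4 in WT, and ZNF354C had 208, 169 and 245 against 1116, 996 and 972 in F2 and 1002, 899 and 905 in WT. In both F2 kept the WT level. In the smaller lists the numbers of genes that differed were low, but most shares were above the 6.9% of all tested genes. Of 30 tested among 93 potassium channel genes, 2 were higher and 2 lower (13.3%; median 0.03, and -0.01 with every library scaled to the same total): KCNK6, a potassium leak channel, was at the limit (1.01 ± 0.09, SE), with 5 of its alternatives below it, and KCNH3, a voltage-gated channel, had a difference of -1.52 ± 0.28. Of 23 tested among 38 imprinted genes, expressed from the copy of 1 parent, 1 was higher and 4 lower (21.7%, beside 6.9% of all tested genes), with a median of -0.12. They included CDKN1C and PEG10, a gag-pol derived gene, with 10253, 8533 and 10209 in E1 and 20635, 21540 and 19703 in F2 (-1.10 ± 0.07). Without F2 replicate 3, 1 was higher and 2 lower.

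Of 16 tested among 134 cancer-testis genes, normally limited to germ cells, 0 were higher and 2 lower (12.5%, beside 6.9% of all tested genes, with a median of 0.17): SYCP2, a synaptonemal complex protein (-1.67 ± 0.17, SE), and PRAME, with 63.4, 62.7 and 63.3 in E1 against 132, 145 and 132 in F2 (-1.10 ± 0.34). The G401 line comes from the kidney, and of 11 tested among 37 regulators of kidney development PAX2 was higher and FOXC1 lower (18.2%), with a median of -0.27. PAX2 had 2043, 1683 and 1460 in E1 and 690, 757 and 933 in F2 (1.12 ± 0.14), and its call was lost without E1 replicate 1 (0.99). FOXC1, a forkhead factor, had 1275, 1035 and 1324 in E1, 3770, 3707 and 3504 in F2, against 2029, 2080 and 2001 in WT (-1.60 ± 0.09). Of 78 tested among 85 ribosomal protein genes only RPS27L, which is also a p53 target, was called (1.28%, beside the same 6.9%). The call of RPS27L was lost without E1 replicate 2, E1 replicate 3 or F2 replicate 3, or with either other scaling. The mean of this list was -0.22, 0.06 and -0.19 in the E1 libraries and 0.06, 0.07 and -0.13 in the F2 libraries, relative to the F2 mean, so the clones overlapped.

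The level in WT, the RB1-intact line, was then set beside those of the clones. Among the 556 genes higher in E1, WT lay between the clones and nearer to F2 in 274, between them and nearer to E1 in 194, below F2 in 61 and above E1 in 27. Against WT, 195 of these genes differed in E1 only, 103 in F2 only, 58 in both in opposite directions and 190 in neither. Among the 486 genes lower in E1, WT lay between and nearer to F2 in 277, between and nearer to E1 in 127, beyond F2 in 67 and beyond E1 in 15. Here 181 differed from WT in E1 only, 48 in F2 only, 30 in both in opposite directions and 218 in neither. Over all tested genes, E1 was higher than WT in 2.23% and lower in 1.93%, and F2 higher than WT in 0.9% and lower in 1.46%. Both comparisons use the same WT libraries, and the genes were chosen by the difference between the clones, so these counts are a description.

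**Figure D4:**
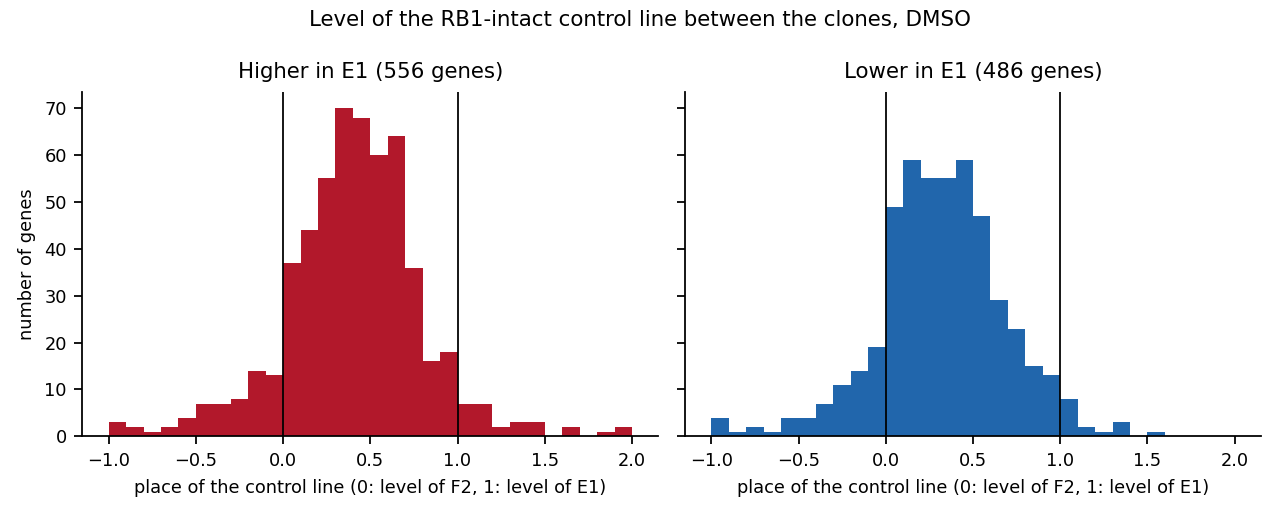
Number of genes by the place of the WT level between the clones with DMSO, on the log2 scale, where 0 is the level of F2 and 1 the level of E1 (values beyond the ends of the axis are counted in the end bars). The left histogram holds the 556 genes higher in E1 and the right the 486 lower genes. In both, most genes lie between the vertical lines, with a median place of 0.427 on the left and 0.318 on the right.

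The tazemetostat libraries are separate cultures of the same clones. They did not enter the filter or the log2 difference with DMSO. They did enter the estimate of the spread in the shared fit, and so the adjusted p that chose the genes. With the inhibitor the clones differed in 692 of the 15110 genes (4.58%), of which 245 were higher (1.62%) and 447 lower (2.96%) in E1. Of the 556 genes higher in E1 with DMSO, 164 (29.5%) were also higher with tazemetostat, 11 were lower, and 444 (79.9%) kept the sign. Their median difference was 1.62 with DMSO and 0.56 with tazemetostat. Of the 486 lower genes, 202 (41.6%) were also lower, 1 was higher, and 439 (90.3%) kept the sign, with medians of -1.37 and -0.90. The genes were chosen for a large difference with DMSO, which by itself favours a smaller one in other libraries. Across all tested genes, which are not independent, Pearson's r between the difference with DMSO and that with tazemetostat was 0.638.

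The change in the difference between the clones was tested itself, as the interaction of clone and treatment. It passed in 568 genes (3.76%). Of the 556 higher genes the difference narrowed in 262 (47.1%) and widened in 1. Of the 486 lower genes it narrowed in 119 (24.5%) and widened in 9. Among the 556 genes, 310 were higher with tazemetostat than with DMSO in F2, the clone where they were low, and 137 were so in E1, beside 6.74% of all tested genes in F2 and 4.88% in E1. Among the 486 genes, 134 were higher with tazemetostat in E1, the clone where they were low, and 95 in F2. Lower with tazemetostat were 62 of the 486 in E1 and 115 in F2. Of the 556, 70 were lower with it in E1 and 19 in F2. The share of all tested genes that fell is not given here. All these counts share the DMSO libraries by which the genes were chosen. Of the 34 genes with at most 3 reads in each F2 library, 18 had over 3 reads in every F2 library with tazemetostat, and 12 stayed at the floor. Of the 29 such genes in E1, 9 had over 3 reads in every library and 13 stayed at it. These genes passed the filter through their level in the other clone. The same shares over all genes at the floor are not given here, so whether these counts are unusual was not tested.

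Single genes show both outcomes. PRICKLE2 had 3931, 3916 and 3794 in E1 and 2474, 2757 and 2680 in F2 with tazemetostat, where F2 with DMSO had 0 reads, and the clone difference shrank from 10.29 to 0.56. NAV2 had 13107, 11388 and 12193 in E1 and 11130, 11894 and 11830 in F2, so that the clones overlapped (0.07 ± 0.26, SE; limma adjusted p = 0.85). JARID2, with 1464, 1459 and 1491 in E1 and 1471, 1533 and 1481 in F2, and PGBD5, with 970, 1042 and 986 against 730, 703 and 744, also came close. Other genes kept their difference. ZNF502 had 124, 111 and 96.1 in E1 and 0 reads in F2, ZNF813 had 1.06, 0 and 0 in E1 and 73.8, 113 and 105 in F2, and EPHA3 had 4866, 5593 and 5753 against 61.2, 68.6 and 62.0. For these 3 the interaction did not pass (limma adjusted p = 0.15, 0.28 and 0.39). HMCN1 lay in between: E1 had 8659, 6459 and 8247, F2 reached 379, 530 and 474, and a difference of 4.08 ± 0.25 remained. NTRK3 fell in F2 to 205, 180 and 137, with 1.06, 0.967 and 7.54 in E1. Its difference narrowed through the fall in the high clone and, on the log scale, through a few reads in E1.

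**Figure D5:**
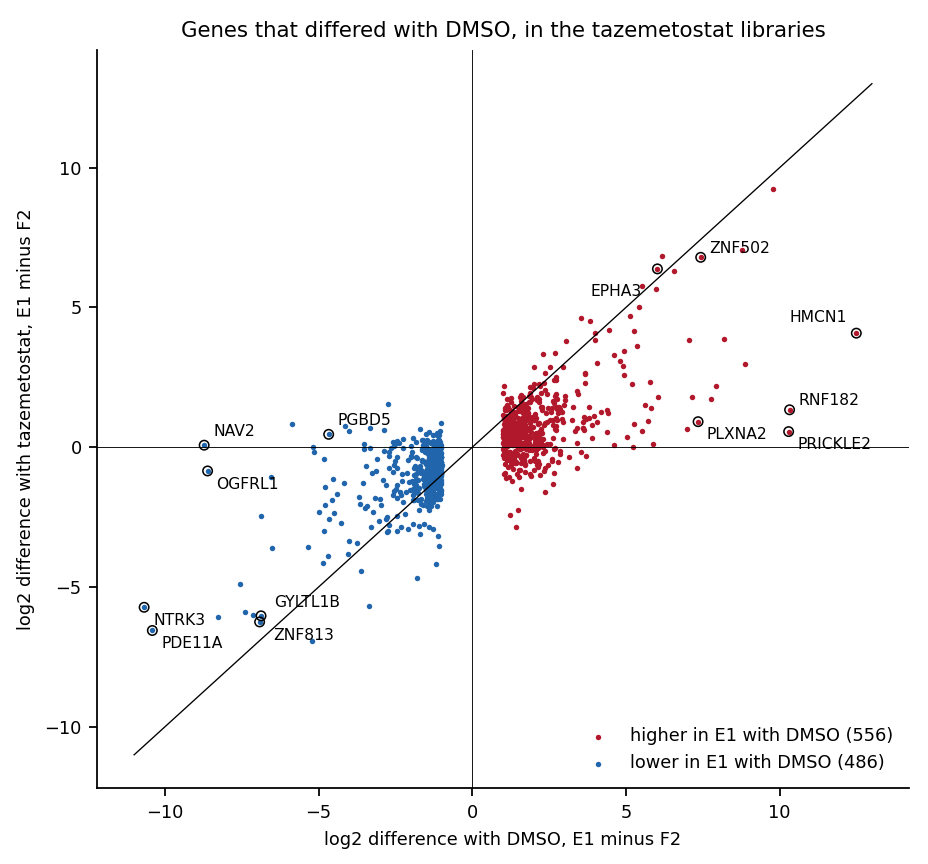
Log2 differences between the clones, E1 minus F2, with DMSO (x axis) and with tazemetostat (y axis) for the 556 genes higher (red) and 486 genes lower (blue) in E1 with DMSO. Each point is a gene and the diagonal marks equal differences. ZNF502, EPHA3, ZNF813 and GYLTL1B lie near the diagonal, whereas PRICKLE2, PLXNA2, NAV2 and OGFRL1 lie near the horizontal line of no difference.

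Genes that differed often lay next to each other on the chromosome. Of the 15110 genes, 86.8% could be matched to GRCh38.p14, and 857 of the 1042. With second symbols of the same gene left out, 13096 genes were placed in the gene order. Of 460 placed genes higher in E1, 117 (25.4%) had a neighbouring tested gene that was also higher, compared with 6.10% of the other tested genes. Of 395 placed lower genes, 52 (13.2%) had a lower neighbour, compared with 5.61% of the others. There were 11 runs of at least 3 adjacent tested genes that differed in the same direction. One of the longest, with 6 genes on chromosome 12, runs from GPRC5A, an orphan receptor, to EMP1, an epithelial membrane protein. The other, on chromosome 19, holds CEACAM1 and 5 pregnancy-specific glycoprotein genes (PSG), a family of near-identical sequences whose reads may be split. PSG9, which had the highest counts of the family, was lower in E1, with 9414 ± 325 against 20308 ± 554 in F2 (SD, n = 3; log2 difference -1.11). On chromosome 3, CCR1, CCRL2 and ALS2CL were higher together, and on chromosome 21 PCBP3, COL6A1 and COL6A2 were lower together, each by close to the limit of the call. Genes that overlap can share reads, and the runs were named after their values were seen.

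Among chromosomes with enough tested genes for a summary, which left out Y, none stood apart as a whole with DMSO. Chromosome medians of the log2 difference ranged from -0.09 on chromosome 19 to 0.03 on chromosome 14, close to the median of all tested genes. With tazemetostat the median of chromosome 19 was -0.20. By gene class, 399 of 11993 protein-coding genes (3.33%) were higher and 369 (3.08%) lower, and 19 of 450 long noncoding RNA genes were higher and 14 lower. Pseudogenes departed from this balance, with 27 of 337 higher (8.01%) and 4 lower (1.19%). Of these 27, 8 are pseudogenes of KRT8 or KRT18, whose parent genes were higher in E1, so their reads may come from the parents.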

How the data were processed

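Poly(A) RNA was sequenced from 18 cultures with a stranded kit, per the labels' protocols. Per the submitters' processing notes, reads were trimmed with Trim Galore 0.4.4, aligned to hg19 with STAR 2.6.0a, counted with HTSeq and normalized with DESeq2. The annotation and the strand setting are not given in the sources used here. The authors deposited 1 table whose signal values are read counts per gene, each divided by its library's size factor. Multiplied by these factors (0.824 to 1.12 in the 6 libraries), 100% of values were whole reads within 1e-06. Floors of 3 reads and intervals cover counting error only.

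limma 3.58.1 (R 4.3.3; lmFit, eBayes with trend) was run on log2(value + 1) with 6 group means over all 18 libraries and no replicate block, which understates changes of low genes. The spread is that between cultures of 1 line under 1 treatment, pooled over the 6 groups, and not that between clones. The median SD of a gene ran from 0.075 in F2 with tazemetostat to 0.176 in E1 with DMSO. A pooled SE can therefore be too small for E1 with DMSO. Checks on simulated counts preceded the fit.

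The members, gene lists and tests were chosen with earlier results of these data known. The named genes are the 10 highest and 10 lowest with a mean of at least 50 and no overlap, without clone-based names, the 2 highest and 2 lowest called genes with that mean in each of 20 lists, and 14 fixed genes, of which 1 is not reported here (the others are RB1, RBL1, RBL2, E2F1, EZH2, MDM2, CDKN1A, CDKN1B, CDKN1C, CDKN2A, CDKN2B, PRICKLE1 and PGBD5). Alternatives were other pseudocounts, filters, scalings, fits, edgeR 4.0.16 and DESeq2 1.42.0 on the recovered reads, and leaving out each replicate. Promoters and gene order came from RefSeq (GRCh38.p14) by symbol. Figures were drawn with matplotlib 3.10.9.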

Additional observations from a re-analysis of the deposited data

Results flagged for a closer look

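The results below were set apart because the difference between the clones itself differed between tazemetostat and DMSO, by the interaction in limma with an adjusted p under 0.05 and a log2 of at least 1 in size. Each value is the log2 difference E1 minus F2 with tazemetostat minus that with DMSO. A negative value narrows a difference in favour of E1 and a positive value narrows one in favour of F2, unless the sign of the difference also turned. The genes were named for their difference with DMSO, and the same DMSO libraries enter the interaction, so narrowing is favoured by that choice.

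Among the genes highest in E1, the values were -8.41 for HMCN1, -8.98 for RNF182, -9.73 for PRICKLE2, -4.30 for CCRL2, -5.73 for CHI3L1, -6.05 for OLR1, -6.43 for PLXNA2 and -5.37 for ARHGAP29. Of the described genes of that group, ZNF502 was the one whose interaction did not pass.

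Among the genes lowest in E1, the values were 4.95 for NTRK3, 3.85 for PDE11A, 8.79 for NAV2, 7.76 for OGFRL1, 2.69 for FRZB, 4.41 for NFIB and 5.46 for FSTL1, and PGBD5 had 5.13. LINC00052, ZNF813 and GYLTL1B did not pass.

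From the gene lists, E2F7 had -1.71, WNT11 -1.77, DDR1 -1.02, FAT4 -2.98, CDH4 -1.21, COL1A2 -1.71, PSMB9 -1.30 and HOXB8 -1.58. JARID2 had 2.24, PCDH9 4.57, CDH1 2.32 and FOXC1 1.66. E2F7 was higher in E1 with DMSO (1.29) and had a difference of -0.42 with tazemetostat, so its sign turned. The sign turned as well for PCDH9 (0.57 with tazemetostat), FOXC1 (0.06), NAV2, PGBD5 and FAT4. None of these turned differences reached a log2 of 1 in size with tazemetostat, so none counts as a difference in the other direction. Those of FOXC1, NAV2 and FAT4 were small and did not pass the test.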

How the results depend on the processing

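Counts of genes moved most with the filter and the fold limit, as fewer or more genes then enter. With a mean of at least 50 over the 6 libraries, 585 genes differed with DMSO (334 higher and 251 lower in E1), 374 with tazemetostat (162 and 212) and 336 in the interaction (97 and 239). Without a filter the counts were 1760 (994 and 766) and 1393 (509 and 884), and 608 were lower in the interaction. With the mean of at least 10 taken over all 18 libraries, 1101 differed with tazemetostat (386 and 715) and 938 in the interaction (288 and 650). With no fold limit the counts were 5798 (3028 and 2770), 5055 (2695 and 2360) and 1960 (840 and 1120). Other scalings, pseudocounts and fits kept each count within 1.5 times. edgeR called 1070 and DESeq2 1048 genes with DMSO. Leaving out 1 library gave 1028 to 1086. EZH2, which did not pass, changed sign without E1 replicate 1, E1 replicate 2 or F2 replicate 1, and its log2 difference ran from -0.106 to 0.0344 when 1 library was left out. With the replicate number as a block, 1040 genes differed with DMSO, 693 with tazemetostat and 573 in the interaction. Same-numbered deviations correlated at -0.26, 0.33 and 0.05 with DMSO. These few values show no steady pairing by number and are too few to decide whether the numbers pair the libraries. Of the named genes' values under all alternatives, 1248 kept direction and side of the threshold, 19 lost and 6 gained the call, and 3 changed sign. Genes with few reads in 1 clone are limited by depth, so folds against 0 reads are lower bounds.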

Other observations

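Some gene families outside the lists, chosen after their values were seen, also differed. The keratin genes KRT8 and KRT18, whose products pair into filaments of simple epithelia, were higher in E1 with DMSO. KRT8 had 42717, 52006 and 30200 normalized counts in E1, 13901, 15147 and 13831 in F2, against 24754, 24120 and 22359 in WT (log2 difference 1.51 ± 0.12, SE; limma adjusted p 7.4e-09). KRT18 had 31202, 33138 and 26525 in E1 and 9794, 9093 and 8218 in F2 (1.74 ± 0.08). With tazemetostat neither differed, and E1 and F2 means of KRT8 were 87232 and 88322. Of 38 tested histone cluster genes, 8 were higher in E1 and 0 lower, with a median log2 of 0.38. Transcripts of most such genes lack poly(A) tails, so poly(A) selection limits these levels.

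Tight junction genes went both ways: of 10 tested claudins, 2 were higher in E1 and 3 lower. CLDN11 had a mean of 1034 ± 116 (SD, n = 3) in E1 with a log2 difference of 5.52, and CLDN16 had a log2 difference of -5.88. Of 24 interleukin and interleukin receptor genes, 5 were higher and 1 lower. IL6, a cytokine, had a mean of 434 ± 17.4 (SD, n = 3) in E1 with a difference of 5.78. These are descriptions of single families, and 6.9% of all tested genes differed.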
